A study of Mus musculus with 8 samples.

Results

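Motile cilia genes were followed through the cerebellum of mice that lack the chromatin remodeller Snf2h and of control mice, with and without running. They were chosen as 35 gene symbols of motile ciliogenesis and of the ciliary axoneme, together with any symbol made of Dnah and a digit. Of these symbols, 28 were found as loci among the 11763 genes that the deposited tables list, and no locus name was made of Dnah and a digit. The symbols Dnaic1, Dnali1, Drc1, Fam183b, Iqcg, Rsph9 and Zmynd10 were not listed under these names. Drc1 stood in the tables under the older symbol Ccdc164, which the choice of symbols did not include and which is described below with the further motile cilia genes. For the others the tables do not say whether they were untested or tested and not called. Axonemal dynein heavy chains stood in the tables under the older symbols Dnahc1, Dnahc5, Dnahc6, Dnahc7a, Dnahc7b, Dnahc9 and Dnahc11. These 7 loci were added after the tables had been seen and are given apart from the 28.

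The 4 groups were cKO runner, cKO sedentary, control runner and control sedentary, each with 2 libraries of polyadenylated RNA. Each library was a pool of 3 cerebella of C57Bl/6 males at postnatal day 40, and the 8 libraries were sequenced as pairs of 100-base reads. The cKO mice carry the genotype Snf2h cKO-Nestin. Nestin names the driver of the deletion, which acts in neural progenitor cells, so that loss is not limited to a single cell type of the cerebellum. The labels do not give the alleles of the control mice. Lane letters in the titles tell the libraries of a group apart, and whether a letter marks separate pools or separate lanes of the same pool is not stated. The deposited tables hold 1 FPKM value for each group (fragments mapped to a gene, scaled for transcript length and for the size of the library), in which the authors combined the libraries. No spread between libraries, read depth or counting interval could therefore be given for any value below, and each FPKM is the authors' group value. A gene was called when the authors' Cuffdiff q was below 0.05. Per the deposited table, Smarca5, which encodes Snf2h, had 5.38 FPKM in cKO runners, 4.94 in cKO sedentary mice, 12.96 in control runners and 12.6 in control sedentary mice. It was lower in cKO mice by log2 fold changes of -1.27 in runners and -1.35 in sedentary mice in the authors' deposited tables (q = 0.000167 in each).

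A motile cilium beats because dynein arms slide the microtubule doublets of its axoneme against each other. Radial spokes and a central pair of microtubules regulate the arms, ruler proteins and the nexin link set their spacing, and the arms are put together in the cytoplasm before they are docked. In the brain, motile cilia are carried by ependymal cells, which line the ventricles, and by the epithelium of the choroid plexus, whose best known transcript is Ttr (transthyretin, the thyroid hormone carrier of the cerebrospinal fluid). The forkhead factor Foxj1 and the RFX factors, which bind the X-box of ciliary promoters, are the textbook regulators of these genes. In bulk tissue, a different number of ciliated cells and a different amount of RNA per ciliated cell cannot be told apart.

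Promoter windows are shown because many, though not all, of the members have an X-box sequence near their start, a feature that the choice of genes did not use. RefSeq windows of 250 bases before and 50 bases after each start (build GRCm38.p6) were available for 30 of the 35 symbols. The letters GTTGCC, called the X-box arm here, were found on either strand in the windows of 18 of the 30 genes (60.0%), and in 14 genes an arm lay wholly before the start. Among all 27025 genes of the RefSeq table, 3821 had the arm (14.1%). The full palindrome GTTNCCNNGGNAAC, in which an arm can lie, was present in 1 member, Ccdc151, against 0.529% of all genes. The forkhead core TGTTTAC was present in 1 member, Ak7, against 4.05% of all genes. The arm was also found in 26 of 57 further motile cilia genes (45.6%), in 20 of 46 ciliary transport and basal body genes shared with primary cilia (43.5%), in 6 of 18 choroid plexus genes (33.3%) and in 2 of 7 dynein heavy chain genes (28.6%). A match is a run of letters and does not show that a factor binds. The window counted for Spag6 is that of the gene on chromosome 2.

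**Figure D1:**
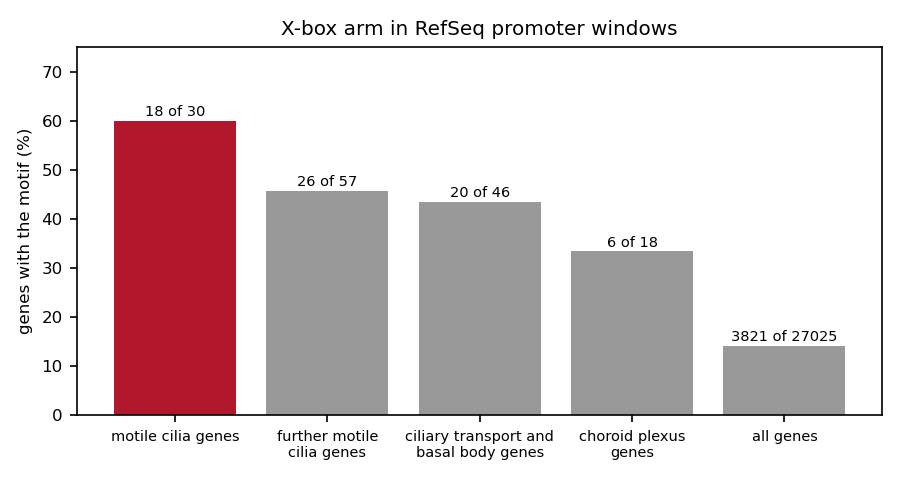
Share of genes whose RefSeq window holds the X-box arm GTTGCC on either strand (vertical axis, percent of genes with a window), by gene list, with the number of genes above each bar. The bar of the motile cilia genes stands at 60.0% and that of all genes at 14.1%.

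The 250 bases before the start are printed for 6 members, 5′ to 3′ on the gene's own strand, with X-box arms, or in Ccdc151 the full palindrome, in capitals. Rfx2 is shown as the regulator that was itself higher in cKO mice. Spag16, Enkur, Tekt2 and Ccdc151 are shown as structural genes that were higher in cKO mice, and Hydin as a gene with an arm whose level was lower in cKO runners. The windows are Rfx2 at chr17:56831009-56831258 (minus strand), Spag16 at chr1:69826720-69826969 (plus strand), Enkur at chr2:21205366-21205615 (minus strand), Tekt2 at chr4:126325689-126325938 (minus strand), Ccdc151 at chr9:22002635-22002884 (minus strand) and Hydin at chr8:110266727-110266976 (plus strand). In Spag16 the 2 arms lie side by side on opposite strands, in Tekt2 they lie far apart, and in Rfx2, Enkur and Hydin a single arm is present.
Rfx2: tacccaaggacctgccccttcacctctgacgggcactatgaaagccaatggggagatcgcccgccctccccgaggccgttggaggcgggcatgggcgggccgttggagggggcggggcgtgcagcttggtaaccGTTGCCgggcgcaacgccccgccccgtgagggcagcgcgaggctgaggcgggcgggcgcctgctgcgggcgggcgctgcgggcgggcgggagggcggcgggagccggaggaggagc
Spag16: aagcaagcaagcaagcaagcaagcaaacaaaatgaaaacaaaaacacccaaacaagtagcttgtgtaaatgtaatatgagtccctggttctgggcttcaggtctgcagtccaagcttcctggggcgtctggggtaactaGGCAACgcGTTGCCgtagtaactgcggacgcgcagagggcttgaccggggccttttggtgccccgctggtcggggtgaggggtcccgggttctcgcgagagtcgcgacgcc
Enkur: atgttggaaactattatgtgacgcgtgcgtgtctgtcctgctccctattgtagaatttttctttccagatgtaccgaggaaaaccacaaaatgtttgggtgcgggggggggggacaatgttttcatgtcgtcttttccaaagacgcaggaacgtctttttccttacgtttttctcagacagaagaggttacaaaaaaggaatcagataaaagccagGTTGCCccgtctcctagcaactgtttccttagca
Tekt2: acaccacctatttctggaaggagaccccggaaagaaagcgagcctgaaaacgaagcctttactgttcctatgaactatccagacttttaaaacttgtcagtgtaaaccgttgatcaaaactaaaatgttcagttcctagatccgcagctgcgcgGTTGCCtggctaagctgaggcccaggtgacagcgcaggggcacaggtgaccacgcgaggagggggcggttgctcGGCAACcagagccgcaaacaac
Ccdc151: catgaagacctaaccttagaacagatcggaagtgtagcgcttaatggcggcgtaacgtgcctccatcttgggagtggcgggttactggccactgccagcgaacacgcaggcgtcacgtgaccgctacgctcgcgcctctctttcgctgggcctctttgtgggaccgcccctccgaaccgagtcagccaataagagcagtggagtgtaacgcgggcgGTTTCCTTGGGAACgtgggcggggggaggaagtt
Hydin: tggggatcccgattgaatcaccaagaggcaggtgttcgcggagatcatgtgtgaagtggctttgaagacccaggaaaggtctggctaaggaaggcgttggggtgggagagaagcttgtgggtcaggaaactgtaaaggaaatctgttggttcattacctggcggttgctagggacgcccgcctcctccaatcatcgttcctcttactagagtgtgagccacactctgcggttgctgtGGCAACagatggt

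In sedentary mice, motile cilia genes were mostly higher in cKO than in control cerebellum. Of the 28 listed loci, 19 were higher, 3 were lower and 6 were not called in the authors' deposited table. Over the 11763 listed genes, 38.4% were called higher and 44.2% lower, so that the members' 19 higher calls stand against a table in which lower calls were the more frequent. The median log2 fold change of the listed members was 1.35, beside -0.18 over all genes listed in that comparison. In runners, 18 members were higher and 3 lower in cKO mice, against 32.2% and 36.2% of all genes, and the medians were 0.92 for members and -0.11 for all genes. The shares of all genes called higher and lower also serve as the background for the genotype counts below. The 2 genotype comparisons share no library. Of the members, 15 were called in both, which is 68.2% of the calls in sedentary mice and 71.4% of those in runners; 14 were higher in both, 1 was lower in both and none changed sides. Over all genes, 6642 were called in both, which is 68.3% of the calls in sedentary mice and 82.5% of those in runners, and 94.5% of these had the same direction, so the overlap of the members was not above that of all genes.

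**Figure D2:**
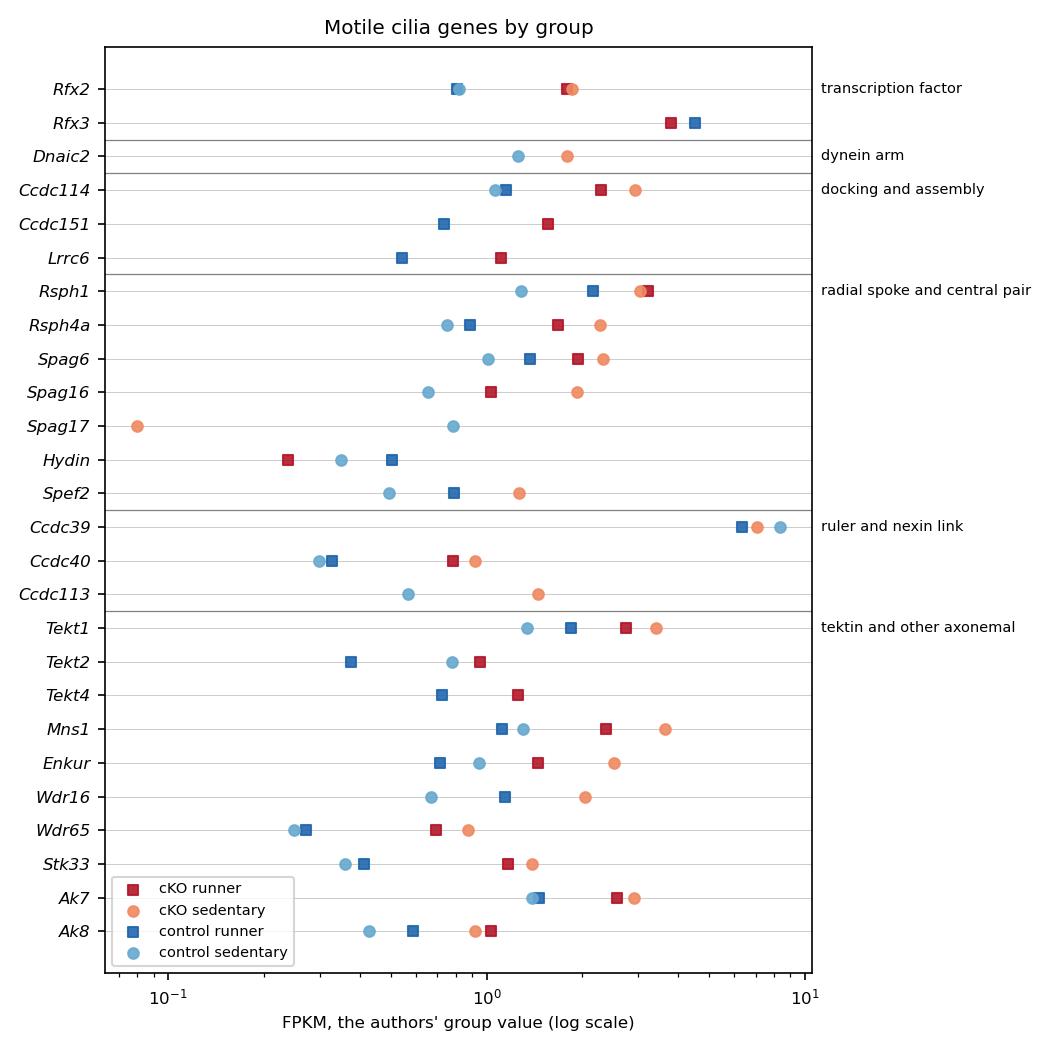
Authors' group FPKM (horizontal axis, log scale) of the 26 listed motile cilia loci that carry a single symbol, by role, with squares for runners and circles for sedentary mice. In most rows the red and orange cKO points lie to the right of the blue control points, and the rows of Rfx3, Spag17, Hydin and Ccdc39 do not follow that pattern.

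Among the transcription factors, Rfx2 was higher in cKO mice in both comparisons. Rfx2 (chromosome 17, 56775897 to 56831013, minus strand, mm10) had 1.79 FPKM in cKO runners, 1.86 in cKO sedentary mice, 0.808 in control runners and 0.819 in control sedentary mice. The pair of values within a genotype was close, and both cKO values stood above both control values. Per the authors' deposited tables, the log2 fold changes of Rfx2 were 1.15 in runners and 1.18 in sedentary mice (q = 0.000167 in each), and no running difference of Rfx2 was called. Rfx3, the related factor known for ciliogenesis in the embryonic node and in ependymal cells, was slightly lower in cKO runners, at 3.79 FPKM against 4.51 in control runners (log2 ratio -0.25, q = 0.0336, in the authors' deposited table), and had no value for the sedentary groups. Foxj1 shares its locus with the neighbouring gene Rnf157 in the tables, so the value cannot be split between them. That joint locus had 61.9 FPKM in cKO runners, 59.5 in cKO sedentary mice, 39.3 in control runners and 35.9 in control sedentary mice, far above the level of Rfx2. Its log2 fold changes in the authors' deposited tables were 0.66 in runners and 0.73 in sedentary mice (q = 0.000167 in each). How much of this belongs to Foxj1 was not tested.

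The dynein motors were covered thinly by the chosen symbols and more fully by the older names. Dnaic2, an intermediate chain of the outer dynein arm, had 1.79 FPKM in cKO sedentary mice and 1.26 in control sedentary mice, with no value in runners. The authors' deposited table gives it a log2 fold change of 0.51 (q = 0.0361), the smallest of the higher calls on a single-symbol locus in that comparison. The inner arm heavy chain gene Dnahc6 had the highest FPKM of the heavy chains in cKO mice, with 6.27 in cKO runners, 9.22 in cKO sedentary mice, 2.77 in control runners and 2.78 in control sedentary mice. The control values of Dnahc6 were nearly equal, while the cKO runners stood between the control groups and the cKO sedentary mice. Dnahc6 was, in the authors' deposited tables, higher in cKO mice by 1.18 in runners and 1.73 in sedentary mice, and lower in cKO runners than in cKO sedentary mice by -0.56 (log2, q = 0.000167 in each).

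Of the 7 heavy chain loci, 6 were higher and 1 was lower in cKO sedentary mice, with a median log2 ratio of 1.52 in the authors' deposited table. In runners 4 were higher and 1 lower, with a median of 1.16. The higher calls were 57.1% of the 7 in runners and 85.7% in sedentary mice, against 32.2% and 38.4% of all listed genes. Dnahc5 and Dnahc9, heavy chains of the outer arm, had 0.302 and 0.370 FPKM in cKO runners, 0.528 and 0.547 in cKO sedentary mice, and 0.143 and 0.180 in control sedentary mice. Dnahc1, of the inner arm, had 1.61 FPKM in cKO runners, 1.36 in cKO sedentary mice, 0.724 in control runners and 0.686 in control sedentary mice. Dnahc7a and Dnahc7b are close paralogs of the inner arm, among which the authors' alignment could split reads; they were higher by 1.52 and 0.58 (log2) in cKO sedentary mice and by 1.29 and 0.55 in cKO runners in the authors' deposited tables. Dnahc11 was the exception, with 1.90 FPKM in cKO runners, 1.86 in cKO sedentary mice, 3.27 in control runners and 3.23 in control sedentary mice. Its log2 fold changes were -0.79 in runners and -0.80 in sedentary mice in the authors' deposited tables (q = 0.000167 in each). An exon of Dnahc11 overlaps the opposite-strand gene Cdca7l, and no source used here says whether the authors counted by strand. In the annotation, exons of Dnahc1, Dnahc6, Dnahc9, Ccdc114, Hydin, Spag6, Stk33, Tekt2 and Wdr16 overlap non-coding or antisense transcripts of the opposite strand, most of them genes that were higher in cKO mice, and the same limit holds for their values.

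Genes that dock or assemble the arms were higher wherever they were called. Ccdc114, part of the docking complex of the outer arm, had 2.29 FPKM in cKO runners, 2.92 in cKO sedentary mice, 1.15 in control runners and 1.07 in control sedentary mice. Both cKO values were above both control values, by log2 fold changes of 0.99 in runners and 1.46 in sedentary mice in the authors' deposited tables (q = 0.000167 in each). Ccdc151, the other docking gene and the member with the full X-box palindrome, had 1.56 FPKM in cKO runners and 0.733 in control runners (1.09 on the log2 scale, q = 0.000167, in the authors' deposited table). Lrrc6, which acts in cytoplasmic assembly of the arms, had 1.11 FPKM in cKO runners and 0.544 in control runners (log2 ratio 1.03, q = 0.00172, in the authors' deposited table). Neither Ccdc151 nor Lrrc6 was listed for the sedentary mice.

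Radial spoke and central pair genes were mixed in direction. Of 8 listed loci, 5 were higher and 2 lower in cKO sedentary mice, and 3 were higher and 2 lower in cKO runners. In each comparison 1 of the lower loci was the joint locus of Eno2 and Lrrc23. The spoke head gene Rsph1 had 3.21 FPKM in cKO runners, 3.03 in cKO sedentary mice, 2.16 in control runners and 1.29 in control sedentary mice. Its cKO values were close to each other and its control values were not. Rsph1 was higher in cKO mice, in the authors' deposited tables, by 0.57 in runners (q = 0.0165) and 1.24 in sedentary mice (q = 0.000167), and higher in control runners than in control sedentary mice by 0.75 (log2, q = 0.0126). Rsph4a, another spoke head gene, had 1.68 FPKM in cKO runners, 2.28 in cKO sedentary mice, 0.885 in control runners and 0.750 in control sedentary mice. It was higher in cKO mice by 0.92 in runners and 1.60 in sedentary mice (q = 0.000167 in each), and lower in cKO runners than in cKO sedentary mice by -0.44 (log2, q = 0.00577), in the authors' deposited tables.

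Spag6, a central pair protein gene, had 1.94 FPKM in cKO runners, 2.32 in cKO sedentary mice, 1.37 in control runners and 1.01 in control sedentary mice. Its log2 fold changes in the authors' deposited tables were 0.50 in runners (q = 0.0185) and 1.20 in sedentary mice (q = 0.000167). Spag6 has a near-identical paralog, Spag6l on chromosome 16, for which RefSeq gives Spag6 as a synonym, so the tables do not settle which copy the value belongs to. Spag16, also of the central pair (chromosome 1, 69826970 to 70725132, plus strand, mm10), had 1.03 FPKM in cKO runners, 1.92 in cKO sedentary mice and 0.653 in control sedentary mice. It was higher in cKO sedentary than in control sedentary mice by 1.55, and lower in cKO runners than in cKO sedentary mice by -0.89 (log2, q = 0.000167 in each), in the authors' deposited tables. Spef2, known for central pair assembly, had 1.26 FPKM in cKO sedentary mice, 0.789 in control runners and 0.495 in control sedentary mice. In the authors' deposited tables it was higher by 1.35 in cKO sedentary mice (q = 0.000167) and by 0.67 in control runners against control sedentary mice (log2, q = 0.0148).

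The lower calls of this role were Hydin, Spag17 and the locus that holds Lrrc23. Hydin, a very large central pair gene whose loss causes hydrocephalus in mice, had 0.238 FPKM in cKO runners, 0.506 in control runners and 0.350 in control sedentary mice. It was lower in cKO runners by -1.09 (q = 0.000167), and higher in control runners than in control sedentary mice by 0.53 (log2, q = 0.00199), in the authors' deposited tables. Spag17, a large central pair gene, had 0.0800 FPKM in cKO sedentary mice and 0.784 in control sedentary mice, a log2 fold change of -3.29 (q = 0.0384) in the authors' deposited table. A Spag17 exon overlaps Wdr3 on the opposite strand, which had 7.65 FPKM in cKO sedentary mice and 13.4 in control sedentary mice, and the part of Wdr3 reads in the Spag17 value was not tested. The spoke gene Lrrc23 is joined in 1 locus with the neuronal enolase gene Eno2. The joint value was 289.9 FPKM in cKO runners, 264.0 in cKO sedentary mice, 316.4 in control runners and 271.9 in control sedentary mice, more than any other member, and its log2 fold changes were -0.13 in runners (q = 0.000167) and -0.04 in sedentary mice (q = 0.00105) in the authors' deposited tables. What Lrrc23 contributes to that value cannot be read from the tables.

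Of the ruler and nexin link genes, Ccdc40 and Ccdc39, whose proteins act as a pair, differed in direction. Ccdc40 had 0.787 FPKM in cKO runners, 0.918 in cKO sedentary mice, 0.328 in control runners and 0.299 in control sedentary mice. The log2 fold changes of Ccdc40 were 1.26 in runners and 1.62 in sedentary mice in the authors' deposited tables (q = 0.000167 in each). Ccdc39 had 7.05 FPKM in cKO sedentary mice, 6.37 in control runners and 8.34 in control sedentary mice, several times the level of Ccdc40. In the authors' deposited tables Ccdc39 was lower in cKO sedentary mice by -0.24 (q = 0.00589) and lower in control runners than in control sedentary mice by -0.39 (log2, q = 0.000167). An exon of Ccdc39 overlaps Ttc14 on the opposite strand, which had 21.9 FPKM in cKO sedentary mice and 23.8 in control sedentary mice (log2 ratio -0.12 in the authors' deposited table), and the part of Ttc14 in the Ccdc39 value was not tested. Ccdc113, a coiled-coil gene of the axoneme, had 1.45 FPKM in cKO sedentary mice and 0.567 in control sedentary mice (log2 ratio 1.35, q = 0.00199, in the authors' deposited table).

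Tektins and the other axonemal genes had no lower call in either genotype comparison. Of 10 loci, 8 were higher in cKO sedentary mice and 9 in cKO runners, against 38.4% and 32.2% of all listed genes. Tekt1, which codes for a filament protein of the microtubule doublets, had 2.74 FPKM in cKO runners, 3.41 in cKO sedentary mice, 1.84 in control runners and 1.34 in control sedentary mice. Its log2 fold changes in the authors' deposited tables were 0.57 in runners (q = 0.0358) and 1.35 in sedentary mice (q = 0.000167). Tekt2 had 0.952 FPKM in cKO runners, 0.375 in control runners and 0.780 in control sedentary mice, so that its control values lay far apart. The authors' deposited tables give Tekt2 as higher in cKO runners than in control runners by 1.34 (q = 0.00159) and lower in control runners than in control sedentary mice by -1.06 (log2, q = 0.0156). Tekt4 had 1.26 FPKM in cKO runners and 0.724 in control runners (log2 ratio 0.80, q = 0.0111, in the authors' deposited table).

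Mns1, needed for motile cilia and sperm flagella in mice, had 2.38 FPKM in cKO runners, 3.65 in cKO sedentary mice, 1.12 in control runners and 1.30 in control sedentary mice. The cKO sedentary value of Mns1 was the highest of the 13 single-symbol members with a value in every group. Its log2 fold changes were 1.09 in runners (q = 0.00118) and 1.49 in sedentary mice (q = 0.000906) in the authors' deposited tables. The opposite-strand neighbour Tex9, with which Mns1 shares exon sequence, was higher by 0.37 in cKO runners and 0.45 in cKO sedentary mice (log2) in the authors' deposited tables. Enkur, a protein gene of ciliary doublets, had 1.45 FPKM in cKO runners, 2.51 in cKO sedentary mice, 0.714 in control runners and 0.946 in control sedentary mice. It was higher in cKO mice by 1.02 in runners (q = 0.00993) and 1.41 in sedentary mice (q = 0.000167), and lower in cKO runners than in cKO sedentary mice by -0.79 (log2, q = 0.00338), in the authors' deposited tables.

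The kinase gene Stk33, known for the sperm flagellum, had the largest higher call of a member in both genotype comparisons. Stk33 (chromosome 7, 109279223 to 109439081, minus strand, mm10) had 1.16 FPKM in cKO runners, 1.39 in cKO sedentary mice, 0.413 in control runners and 0.359 in control sedentary mice. These values correspond to log2 fold changes of 1.495 in runners and 1.96 in sedentary mice in the authors' deposited tables (q = 0.000167 in each). Wdr65, a WD-repeat gene of cilia, followed with 0.695 FPKM in cKO runners, 0.873 in cKO sedentary mice, 0.271 in control runners and 0.249 in control sedentary mice. The log2 fold changes of Wdr65 were 1.36 in runners (q = 0.0274) and 1.81 in sedentary mice (q = 0.0103) in the authors' deposited tables. Wdr16, another WD-repeat gene, had 2.03 FPKM in cKO sedentary mice, 1.14 in control runners and 0.670 in control sedentary mice. The authors' deposited tables give Wdr16 as higher by 1.60 in cKO sedentary mice (q = 0.000167) and by 0.77 in control runners against control sedentary mice (log2, q = 0.0133).

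The adenylate kinases Ak7 and Ak8 serve nucleotide balance in axonemes. Ak7, the member with the forkhead core, had 2.58 FPKM in cKO runners, 2.90 in cKO sedentary mice, 1.46 in control runners and 1.39 in control sedentary mice. Ak8 had 1.03 FPKM in cKO runners, 0.922 in cKO sedentary mice, 0.586 in control runners and 0.428 in control sedentary mice. Both cKO values were above both control values for each gene. The log2 fold changes in the authors' deposited tables were 0.82 for Ak7 (q = 0.000167) and 0.82 for Ak8 (q = 0.0497) in runners, and 1.07 for Ak7 (q = 0.000167) and 1.11 for Ak8 (q = 0.0220) in sedentary mice.

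For running, the deposited tables list fewer members than for genotype, and members that they do not list were not read as unchanged. In cKO mice, 2 members were higher and 3 lower in runners than in sedentary mice, against 17.7% and 13.8% of all listed genes called higher and lower. The lower ones were Spag16, Enkur and Rsph4a, whose values are given above. The higher ones were the joint loci of Foxj1 with Rnf157 and of Lrrc23 with Eno2, by 0.06 (q = 0.00850) and 0.13 (log2, q = 0.000167) in the authors' deposited table. In control mice, 6 members were higher and 2 lower in runners, which is 21.4% and 7.14% of the 28, against 22.1% and 18.4% of all listed genes. The higher ones were Rsph1, Hydin, Spef2 and Wdr16, and the joint loci of Foxj1 and Lrrc23 by 0.13 and 0.22 (log2, q = 0.000167 in each) in the authors' deposited table. The lower ones were Tekt2 and Ccdc39. Median log2 fold changes of the listed members were -0.44 in cKO mice and 0.38 in control mice, from 5 and 8 loci, beside 0.10 and 0.11 over all genes listed in these comparisons. Each running comparison shares its groups with the genotype comparisons, so the members that appear in several of them are not separate evidence.

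For a view across all groups, 13 single-symbol members had an FPKM in each of the 4 groups. Their summed FPKM was 23.7 in cKO runners, 29.0 in cKO sedentary mice, 13.1 in control runners and 11.2 in control sedentary mice. The sum was thus 1.81-fold higher in cKO than in control runners and 2.58-fold higher in cKO than in control sedentary mice. Each of the 13 was called higher in both genotype tables. The lower-called members Ccdc39, Hydin, Spag17 and Rfx3 lacked a value in some group and are left out. Ccdc39 alone had 7.05 FPKM in cKO sedentary mice and 8.34 in control sedentary mice. The sums and folds therefore describe genes already called higher and do not measure the whole list. Across activity it was 0.818 of the sedentary value in cKO runners and 1.17-fold the sedentary value in control runners. Each of the 13 members was higher in value in cKO mice in both genotype comparisons, with median folds of 1.98 in runners and 2.65 in sedentary mice; since each member with a value in every group was also called in both genotype tables, this count is a description. In cKO mice 2 of the 13 had a higher value in runners, and in control mice 10 of the 13 did. These are counts of values rather than calls, and the share over all genes is not given for them. They leave out members called for running that lack a value in some group. Those were Spag16 in cKO mice, and Hydin, Spef2, Wdr16, Tekt2 and Ccdc39 in control mice. With the 2 joint loci added, the sums were 375.5 in cKO runners, 352.5 in cKO sedentary mice, 368.8 in control runners and 319.1 in control sedentary mice, and the Eno2 and Lrrc23 locus alone made up 74.9% to 85.8% of them.

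**Figure D3:**
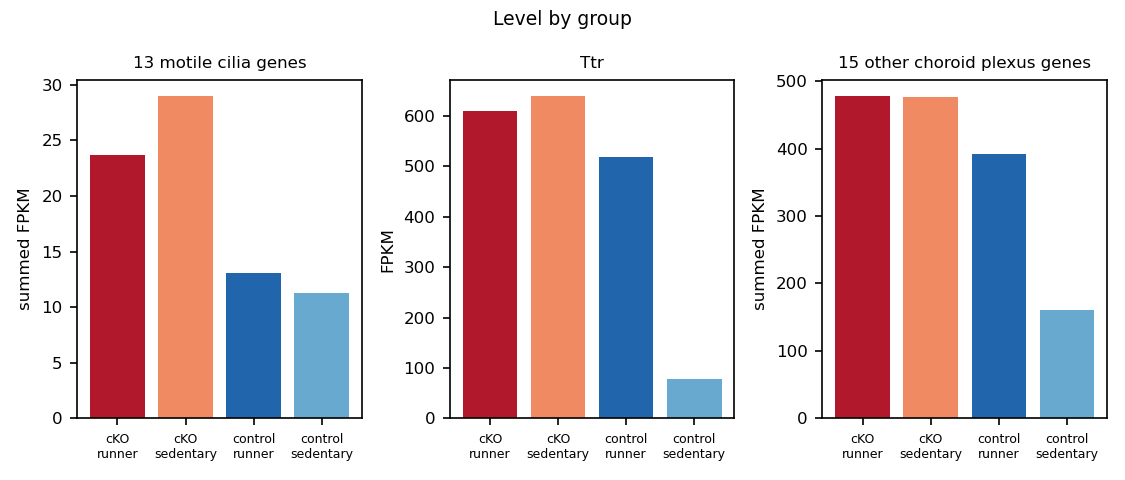
Summed FPKM of 13 single-symbol motile cilia genes, FPKM of Ttr and summed FPKM of 15 other choroid plexus genes (vertical axes, authors' group values) in the 4 groups. Each of the 13 was called higher in cKO mice in both genotype comparisons, and Enpp2 makes up most of the choroid plexus sums. The control runner bar is close to the control sedentary bar for the motile cilia genes (13.1 and 11.2) and close to the cKO bars for Ttr (518.0 in control runners, 610.2 in cKO runners).

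Set beside Ttr, the sum of these 13 members, all called higher in cKO mice, had its groups in the same order, with steps of other sizes between them. Ttr had 610.2 FPKM in cKO runners, 639.6 in cKO sedentary mice, 518.0 in control runners and 77.7 in control sedentary mice. The widest gap for Ttr lay between the control runners and the control sedentary mice, and for the sum of the 13 members between the cKO runners and the control runners. As folds of the FPKM values, Ttr was 1.18 times as high in cKO as in control runners, 8.23 times as high in cKO as in control sedentary mice, 0.954 of the sedentary value in cKO runners and 6.66 times the sedentary value in control runners. The summed FPKM of the 13 members per 100 FPKM of Ttr was 3.89 in cKO runners, 4.53 in cKO sedentary mice, 2.53 in control runners and 14.5 in control sedentary mice. The summed FPKM of 15 further choroid plexus loci was 478 in cKO runners and 477 in cKO sedentary mice. It was 392 in control runners and 161 in control sedentary mice. Enpp2 alone had 381.9, 377.2, 326.2 and 129.2 FPKM in that order, most of each sum. The median of the 15 loci was 3.61, 3.88, 2.63 and 0.702 FPKM, the same order of groups as for Ttr. In the authors' deposited tables, 13 choroid plexus loci of 23 were higher and 1, Prlr, was lower in cKO runners. In cKO sedentary mice 22 were higher and 1, Otx2, was lower. For running, 2 were higher and 3 lower in cKO mice, and 21 were higher in control mice. The higher calls were 56.5%, 95.7%, 8.7% and 91.3% of the loci, against 32.2%, 38.4%, 17.7% and 22.1% of all listed genes.

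**Figure D4:**
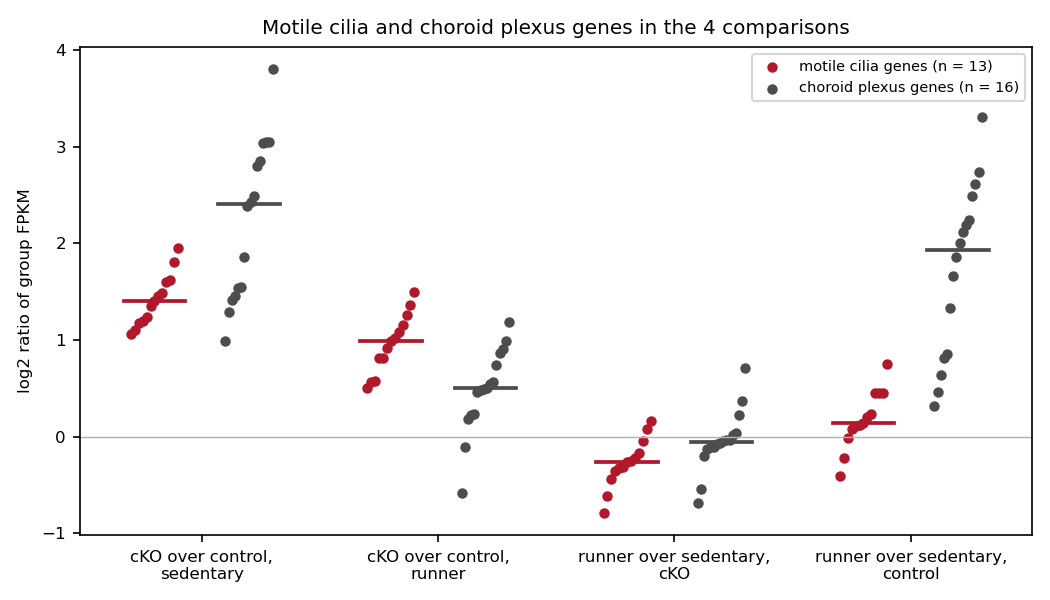
Log2 ratio of the authors' group FPKM (vertical axis) for 13 single-symbol motile cilia genes and 16 choroid plexus genes in each comparison, with a line at the median. Each of the 13 was called higher in cKO mice in both genotype comparisons. For running in control mice, all 16 choroid plexus genes stand above 0, with a median fold of 3.82 and a lowest fold of 1.25. The 13 motile cilia genes shown lie on both sides of 0 there, with a median fold of 1.10 and folds from 0.754 to 1.68. Hydin, Spef2, Wdr16, Tekt2 and Ccdc39, which were called for running in control mice, lack a value in some group and are not shown.

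Whether the genotype difference itself changed with running was tested per gene, by a two-sided z test on the runner minus the sedentary log2 fold change of cKO over control. Standard errors were taken from the deposited statistics and p-values adjusted by the Benjamini-Hochberg method over the 6751 genes listed in both genotype tables, of which 1890 passed (28.0%). Of the 15 members that could be tested, 1 passed, the joint locus of Eno2 and Lrrc23, with a difference of -0.08 (SE 0.031 from the authors' statistics, adjusted p = 0.0281). For the 13 single-symbol members the difference was negative in each, with a median of -0.45, and none passed at the adjusted threshold or had an unadjusted p under 0.05. Over all 6751 genes tested, 3065 had a negative difference, and the median was 0.03. Members are not replicates, so the count of 13 is a description. Their differences ran from -0.78 in Tekt1 (SE 0.517) to -0.03 in Rfx2 (SE 0.387), and the adjusted p-values ran from 0.169 to 0.975. With these standard errors, between 0.354 and 1.12 from the deposited statistics, the tests could not resolve a difference of that size. Errors taken from the deposited p were smaller for the 3 members where they could be computed. For the other members such errors could not be computed. Among these were Rsph4a and Spag6, whose unadjusted p-values in the z test were 0.0600 and 0.0629. Whether they would fall under 0.05 with other errors was not tested. A member could be tested where both genotype tables list it, so the 13 members called in 1 of them, such as Spag16, Spef2, Wdr16, Ccdc113 and Tekt2, are not covered. Among the heavy chains, Dnahc6 passed at -0.55 (SE 0.217 from the authors' statistics, adjusted p = 0.0418), and the other 4 tested did not.

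Ttr differed by -2.80 in the same test (SE 0.081), and 12 of 14 testable choroid plexus loci passed. Each of the 12 had a lower log2 fold change of cKO over control in runners, and the list median of the difference was -1.88. In Prlr the direction was reversed, from 1.86 in sedentary mice to -0.59 in runners. Of the 1890 genes that passed among all genes, 976 had a lower log2 fold change in runners. Whether members and choroid plexus genes differ as lists was not tested. The median standard error was 0.479 for the members, 0.294 for the choroid plexus loci and 0.176 for all genes, so members were measured less precisely than most genes.

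**Figure D5:**
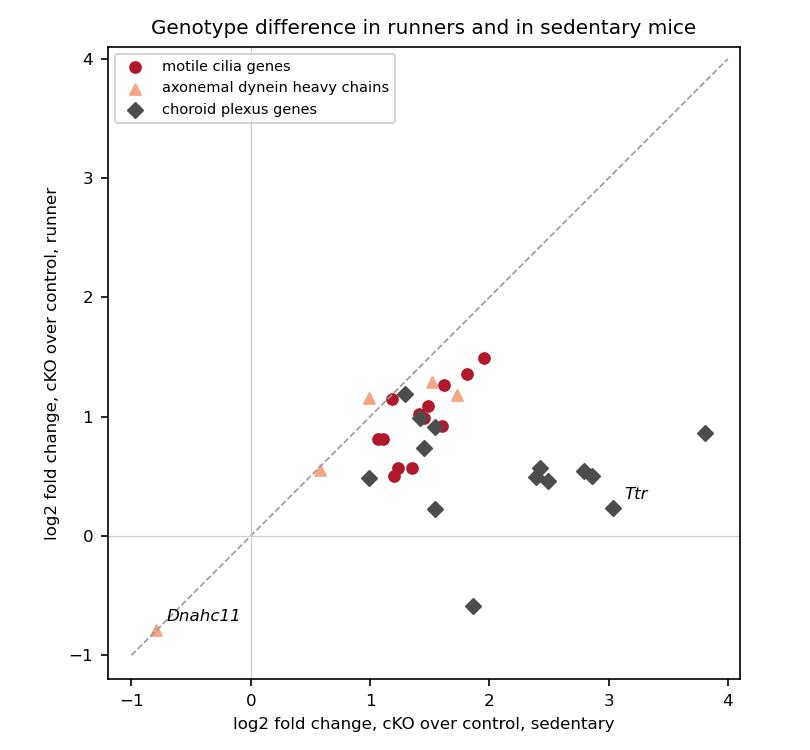
Log2 fold change of cKO over control in runners (vertical axis) against that in sedentary mice (horizontal axis), from the authors' deposited tables, for the loci listed in both, with a dashed line where the 2 are equal. Single-symbol motile cilia genes lie from 1.07 to 1.96 on the horizontal axis and somewhat below the line, and Ttr (3.04 in sedentary mice and 0.24 in runners) lies far below it. Each single-symbol motile cilia gene shown was called higher in both comparisons.

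Further motile cilia genes were also mostly higher in cKO mice. On a list of 79 further symbols of motile cilia and multiciliation, 45 loci were in the tables, 1 of which, Ccdc164, is an older name of the chosen gene Drc1. In cKO runners 29 of them were higher and 4 lower, with a median log2 fold change of 0.87, and in cKO sedentary mice 33 were higher and 3 lower, with a median of 1.32, in the authors' deposited tables. The higher calls were 64.4% of the 45 loci in runners and 73.3% in sedentary mice, against 32.2% and 38.4% of all listed genes. Without Ccdc164, 28 were higher and 4 lower in cKO runners, with a median of 0.89, and the counts in sedentary mice were the same. Running gave 2 higher and 5 lower in cKO mice, and 5 higher and 6 lower in control mice. Over all listed genes, running calls were 17.7% higher and 13.8% lower in cKO mice, and 22.1% and 18.4% in control mice. Gmnc, which codes for the geminin-family protein at the top of the multiciliation programme, had 0.723 FPKM in cKO runners, 1.01 in cKO sedentary mice, 0.257 in control runners and 0.140 in control sedentary mice. Its log2 fold changes were 1.49 in runners and 2.85 in sedentary mice in the authors' deposited tables (q = 0.000167 in each). Ccno and Myb, which act downstream of it in the multiciliation programme, had 0.578 and 0.687 FPKM in cKO runners, 0.820 and 0.604 in cKO sedentary mice, 0.268 and 0.384 in control runners, and 0.250 and 0.359 in control sedentary mice, and both were called higher in cKO mice in both genotype comparisons. Ccdc164 itself, a nexin link gene, had 3.26 FPKM in cKO runners and 1.91 in control runners (log2 ratio 0.77 in the authors' deposited table).

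Genes of ciliary transport and the basal body, which motile cilia share with the primary cilia of nearly all cells, were split. Of 32 listed loci, 10 were higher and 4 lower in cKO runners, and 11 were higher and 15 lower in cKO sedentary mice, with median log2 fold changes of 0.31 and -0.19 in the authors' deposited tables. Higher and lower calls were 31.25% and 12.5% of the loci in runners, against 32.2% and 36.2% of all listed genes. In sedentary mice they were 34.4% and 46.9%, near the 38.4% and 44.2% of all listed genes. Running gave 1 higher and 3 lower in cKO mice, and 6 higher and 5 lower in control mice. The running shares of all listed genes were 17.7% and 13.8% in cKO mice, and 22.1% and 18.4% in control mice. The transport dynein heavy chain gene Dync2h1 was higher, at 4.23 FPKM in cKO runners, 4.79 in cKO sedentary mice, 3.45 in control runners and 3.00 in control sedentary mice. Ift20, a transport gene, was lower, at 46.6 FPKM in cKO sedentary mice, 49.9 in control runners and 64.4 in control sedentary mice.

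Markers of the cells that carry motile cilia and of their neighbours also moved between groups, and their part in the motile cilia results was not tested. Of 10 listed ependymal loci outside the axoneme, 8 were higher and 1 lower in cKO runners. In cKO sedentary mice 5 were higher and 1 lower. Of all listed genes, 32.2% were higher and 36.2% lower in cKO runners, and 38.4% and 44.2% in cKO sedentary mice. Running gave 5 lower in each genotype and none higher, against 13.8% of all listed genes called lower in cKO mice and 18.4% in control mice. Over 7 of them with all values, the summed FPKM was 645 in cKO runners, 730 in cKO sedentary mice, 539 in control runners and 636 in control sedentary mice, and no value was listed at 0. Several ependymal markers, such as Vim and S100b, are also made by astrocytes. S100b was the lower locus in both comparisons, by -0.41 in runners and -0.65 in sedentary mice (log2) in the authors' deposited tables. Vim was higher by 0.26 in runners and was not listed for genotype in sedentary mice. The median log2 fold changes of the list were 0.30 in runners and 0.57 in sedentary mice, and both genes named next lay above them. Tmem212, an ependymal gene, had 2.67 FPKM in cKO runners, 2.77 in cKO sedentary mice, 0.9999 in control runners and 1.13 in control sedentary mice. Cd24a, made by ependymal cells and by immature neurons, had 27.0 FPKM in cKO runners, 34.7 in cKO sedentary mice, 5.56 in control runners and 4.57 in control sedentary mice.

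The levels of neuronal and glial marker genes differed as well, and no value of any marker list was listed at 0. Over all listed genes, the shares called higher and lower were 32.2% and 36.2% in cKO runners and 38.4% and 44.2% in cKO sedentary mice. For running they were 17.7% and 13.8% in cKO mice, and 22.1% and 18.4% in control mice. Granule neuron markers summed to 895 FPKM in cKO runners, 583 in cKO sedentary mice, 2379 in control runners and 2277 in control sedentary mice, and all 16 loci were lower in cKO mice in both genotype comparisons. Running gave 16 of these higher in cKO mice, and 9 higher and 2 lower in control mice. Purkinje cell markers were higher in 10 of 11 loci with none lower in cKO runners, and higher in 10 and lower in 1 in cKO sedentary mice; running gave 11 lower in cKO mice, and 5 higher and 4 lower in control mice. Their sums were 3127 FPKM in cKO runners, 4317 in cKO sedentary mice, 2304 in control runners and 2566 in control sedentary mice. Astrocyte and Bergmann glia markers gave 6 higher and 3 lower of 10 in both genotype comparisons, 1 higher and 8 lower for running in cKO mice, and 3 higher and 6 lower for running in control mice, with sums between 1395 FPKM in control runners and 1680 FPKM in cKO sedentary mice. Markers listed as hindbrain and midbrain were higher in 13 of 13 loci in cKO runners and in 11 in cKO sedentary mice. Their sums were 104 FPKM in cKO runners, 86.7 in cKO sedentary mice, 15.2 in control runners and 23.1 in control sedentary mice. In control runners, Slc6a5 made up 7.26 FPKM of the sum and Th 3.21. Whether these transcripts came from tissue next to the cerebellum or from the cerebellum itself was not tested. For running, the hindbrain and midbrain markers gave 4 higher in cKO mice, and 1 higher and 7 lower in control mice. Of 8 testis germ cell markers, a further tissue that holds axonemes, 3 were listed; all 3 were higher in cKO sedentary mice, 1 was higher in cKO runners, and 1 was lower for running in cKO mice.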

How the data were processed

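Cerebellar polyadenylated RNA from 8 mouse libraries (2 per group, each a pool of 3 cerebella) was sequenced on an Illumina HiSeq instrument, per the labels. Cuffdiff, Cufflinks 2.1.1, TopHat2 2.0.8b and TopHat, with the build mm10, stand in the submitters' processing notes. Each of the 4 deposited tables holds, per the file headers, 1 FPKM value for each of 2 groups, which the authors made over the libraries of a group. The log2 fold changes are the authors' deposited ones, second group over first, and their signs were set so that cKO is over control and runner over sedentary. Cuffdiff's deposited test statistic is used as a score. Each q-value and p-value is the authors', per the file headers. The highest q of a table ran from 0.0264 to 0.0631, so that nearly all listed genes are called ones. A gene missing from a table was not read as unchanged, and percentages of called genes are over the 11763 genes listed in any table, nearly all of which were called at least once. All 13151 group values that stand in more than 1 table were identical between tables. Deposited fold changes differed from the ratio of the values by 0.01 log2 or more in 51 rows, none of a member. No source used here gives the depth of a library.

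The difference between genotype effects was tested with a two-sided z test (standard error of each effect = fold change divided by the deposited statistic; Benjamini-Hochberg adjustment over all genes listed in both tables), which was tested on simulated data. No other test was added. If the libraries of a group are not separate cultures or animals, the authors' p-values cover technical spread alone. Genes named in full were the 12 members with the highest mean FPKM, the 6 called members with the largest change in each genotype comparison with at least 0.5 FPKM in a group, Foxj1, Rfx2, Rfx3, Ttr and any member called against most others; further members, neighbours and list genes were named after their values were seen. The members and lists were chosen with earlier results of these data known. Positions are from GENCODE M21 on GRCm38, and promoter windows from RefSeq (GRCm38.p6). Python 3.11.15, pandas 2.3.3, scipy 1.17.1 and matplotlib 3.10.9 were used.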

Additional observations from a re-analysis of the deposited data

Results flagged for a closer look

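The genotype difference changed with running beyond its error at 1 member locus, at 1 dynein heavy chain and, among 12 of 14 choroid plexus loci, at Ttr. At the joint locus of Eno2 and Lrrc23, the log2 fold change of cKO over control was -0.13 in runners and -0.04 in sedentary mice, a difference of -0.0837 (z test on the authors' statistics, adjusted p = 0.0281). This is far under 1.5-fold, and the Lrrc23 part of the locus cannot be separated from Eno2. For Dnahc6, the log2 fold change was 1.18 in runners and 1.73 in sedentary mice, a difference of -0.55 (z test on the authors' statistics, adjusted p = 0.0418), which did not pass a test for a difference above 1.5-fold. For Ttr, the log2 fold change of cKO over control was 0.24 in runners and 3.04 in sedentary mice, a difference of -2.80, which also passed a test for a difference above 1.5-fold.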

How the results depend on the processing

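No paired analysis was possible because the deposited tables give 1 value per group and no value per library, and for the same reason no library could be left out. Values that moved are given in the order cKO over control in sedentary mice, cKO over control in runners, running in cKO mice and running in control mice. With FPKM + 0.1 the members' medians were 1.20, 0.85, -0.42 and 0.32 (log2). Centring on genes of like transcript length gave 1.54, 0.99, -0.61 and 0.30, and counts for running in cKO mice of 0 higher and 5 lower. Without joint loci the medians were 0.99 in runners, -0.79 and 0.60, and 0 members were higher for running in cKO mice. With the older dynein symbols, chosen after seeing the data, the medians were 0.95 in runners and -0.56 for running in cKO mice, where 6 were lower. At q below 0.01, running in control mice gave 3 higher and 1 lower. The genotype counts kept within 1.5 times their value under each alternative, and none changed the sign of a median.

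In the order cKO runner, cKO sedentary, control runner and control sedentary, the members' summed FPKM was 85.6, 88.5, 52.4 and 47.2 without the top member, 23.7, 29.0, 13.1 and 11.2 without joint loci, and 385.4, 368.0, 384.5 and 333.0 with every listed member. The ratio of the sum to Ttr, 0.615, 0.551, 0.712 and 4.11, was 0.786, 0.739, 0.942 and 1.98 against the other choroid plexus genes, 0.140, 0.138, 0.101 and 0.607 without the top member, and 0.0389, 0.0453, 0.0253 and 0.145 without joint loci (chosen after seeing the data). The other choroid plexus genes in that ratio are mostly Enpp2 by summed FPKM. The z test above 1.5-fold passed no member. With standard errors from the deposited p, 3 members could be tested and kept their call. These errors were smaller than those from the deposited statistics. They were 0.563 against 0.847 for Ak8, 0.835 against 1.12 for Wdr65 and 0.513 against 0.675 for Mns1.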
